A study of Mus musculus with 12 samples.

Results

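The guanylate-binding protein genes Gbp2 to Gbp11 were examined in RNA-seq of 2 mouse tumour lines. The members were the rows of the deposited count table whose gene symbol was one of these names, and all 10 were present among 57180 rows. KPC cells given 8 Gy (KPC 8 Gy) and KPC controls come from a pancreatic ductal adenocarcinoma line, and MB49 cells given 8 Gy (MB49 8 Gy) and MB49 controls from a bladder cancer line. Each of the 4 groups had 3 libraries, the genotype label of every library reads WT, and all cells were grown in DMEM with serum. Irradiated cells were kept in culture for 48 h. No culture time is given for controls, so dose and time in culture cannot be told apart. The series text also mentions cells made senescent, but the label of a library gives only the line and control or 8 Gy. The labels do not say that replicate libraries stem from separate cultures, so p-values reflect the spread among libraries, which may be technical.

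Guanylate-binding proteins are large GTPases of the dynamin superfamily that cells make in response to interferons. They bind and hydrolyse GTP, assemble into polymers, and coat the vacuoles and surfaces of intracellular microbes, where they act with the immunity-related GTPases. Some members also promote inflammasome signalling and cell death. Interferons induce them through receptor kinases and transcription factors such as IRF1, and type I interferons also through STAT2 and IRF9. The mouse genes lie in clusters on chromosome 3 (Gbp2, Gbp3, Gbp5 and Gbp7) and chromosome 5 (Gbp4, Gbp6, Gbp8, Gbp9, Gbp10 and Gbp11). RefSeq lists Gbp11 as a transcribed pseudogene.

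Because all 10 members moved together in these data, the promoters at hand were read for the letters through which interferon-activated factors bind. RefSeq promoters on GRCm38.p6 matched Gbp2, Gbp3, Gbp5 and Gbp7, and also Gbp2b, a neighbour in the chromosome 3 cluster that is no member. The 250 bases before each start are shown 5′ to 3′ on the plus strand. Capitals mark matches to an ISRE core (GAAANNGAAA) or a GAS core (TTCNNNGAA), each searched on both strands. The ISRE matches all lie on the minus strand, so they read here as a pair of TTTC blocks.
Gbp2, chr3:142620413-142620662: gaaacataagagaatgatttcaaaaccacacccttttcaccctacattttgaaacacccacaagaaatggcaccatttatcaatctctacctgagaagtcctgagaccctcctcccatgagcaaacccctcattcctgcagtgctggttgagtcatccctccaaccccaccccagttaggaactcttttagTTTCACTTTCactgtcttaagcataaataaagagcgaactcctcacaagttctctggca
Gbp3, first of 2 starts, chr3:142559794-142560043: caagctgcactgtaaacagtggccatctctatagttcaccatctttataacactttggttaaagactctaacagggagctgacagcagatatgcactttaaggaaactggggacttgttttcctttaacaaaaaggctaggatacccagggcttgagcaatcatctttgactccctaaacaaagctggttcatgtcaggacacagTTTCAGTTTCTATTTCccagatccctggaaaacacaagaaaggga
Gbp5, chr3:142496684-142496933: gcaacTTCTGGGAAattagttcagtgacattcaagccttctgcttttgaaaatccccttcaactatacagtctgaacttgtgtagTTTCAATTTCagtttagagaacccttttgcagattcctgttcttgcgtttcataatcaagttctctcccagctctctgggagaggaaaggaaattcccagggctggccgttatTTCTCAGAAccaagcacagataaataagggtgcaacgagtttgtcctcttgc
Gbp7, chr3:142530086-142530335: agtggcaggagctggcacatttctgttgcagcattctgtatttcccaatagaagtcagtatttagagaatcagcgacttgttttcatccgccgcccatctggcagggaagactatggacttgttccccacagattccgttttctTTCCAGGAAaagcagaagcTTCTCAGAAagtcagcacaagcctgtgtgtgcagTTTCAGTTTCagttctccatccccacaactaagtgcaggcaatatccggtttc
Gbp2b, chr3:142594597-142594846: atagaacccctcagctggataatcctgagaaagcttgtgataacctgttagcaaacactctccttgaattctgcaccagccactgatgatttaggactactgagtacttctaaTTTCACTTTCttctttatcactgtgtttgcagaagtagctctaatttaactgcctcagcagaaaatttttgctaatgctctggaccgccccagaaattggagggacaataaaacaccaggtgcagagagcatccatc

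Each of these 5 windows held an ISRE core. The match began 59 bases before the start in Gbp2, 53 in Gbp7, 165 in Gbp5 and 137 in Gbp2b. Gbp3 had a pair of overlapping matches, 45 and 39 bases before its first start, and none in the window of its second start. Gbp5 and Gbp7 held 2 GAS cores each, at 245 and 52 bases in Gbp5 and at 106 and 87 bases in Gbp7. Over 32851 mouse promoter windows of the same length, 2.98% held the ISRE core, 7.02% the GAS core and 0.332% both. Gbp2b carried the same 10 letters as Gbp2, and it had 1 read in the KPC 8 Gy libraries together and none in the other 9 libraries. A match is a description of letters and not a binding site.

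The 12 libraries held 19006015 to 26337950 estimated counts, with 12201 to 13024 genes at 10 or more. Levels are given as CPM, counts scaled to library size with TMM factors, as mean ± SD of 3 libraries unless stated. Log2 CPM correlated at 0.975 to 0.990 within groups and at no more than 0.905 between them, and no pair of libraries was identical. KPC control replicate 1 stood apart by 1 ribosomal RNA gene, Rn18s-rs5, which took 5.11% of its counts against 0.141 to 0.547% in the other 11. Among MB49 controls, some markers of cell types had an SD above the mean. Epcam had 1.24 ± 2.15 CPM, Krt20 0.391 ± 0.676 CPM and Col1a2 3.29 ± 5.60 CPM. Most of their counts thus lay in 1 of the 3 libraries. Of 9 pancreatic ductal markers, 7 were at 1 CPM or more in both KPC groups and 6 in both MB49 groups, with sums of 373 to 781 CPM in KPC libraries and 146 to 199.6 CPM in MB49 libraries. The 6 of MB49 counted Krt7 only in 8 Gy cells and Epcam only in controls. Most of the MB49 sum was Sox9, at 143 CPM in 8 Gy cells and 118 CPM in controls. In KPC, Sox9 had 134 CPM in 8 Gy cells and 130 CPM in controls. Urothelial markers did not set MB49 apart: of 10, 4 to 5 reached 1 CPM in the KPC groups, against 2 in MB49 8 Gy cells and 1 in MB49 controls. Their sum was 56.3 to 110.3 CPM in KPC libraries, against 12.8 to 18.5 CPM in MB49 libraries. In MB49, Gata3 had 3.87 CPM in 8 Gy cells and 14.2 CPM in controls, and Upk2 had 0 counts. Krt7 and Krt5 went the other way in MB49. Krt7 had 7.86 CPM in 8 Gy cells and 0.198 CPM in controls, and Krt5 had 0.813 and 0.135 CPM.

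All 10 genes were higher after 8 Gy in both lines. The family together took 0.451 to 0.564% of all counts in KPC 8 Gy libraries, against 0.00125 to 0.00156% in KPC controls. It took 0.252 to 0.315% in MB49 8 Gy libraries, against 0.000833 to 0.00103% in MB49 controls. In edgeR's quasi-likelihood test over 14362 genes, with Benjamini-Hochberg adjustment, 10 of 10 members were called higher in KPC, where 31.3% of all genes tested were called higher. In MB49 the count was also 10 of 10, against 35.3% of all genes. No library overlapped: for every member the 3 irradiated libraries lay above the 3 controls, as they did for 34.7% of all genes in KPC and 35.1% in MB49. The members' median log2 fold change was 8.82 in KPC, beside -0.01 over all genes, and 7.85 in MB49, beside 0.04. With Gbp11, which had no control reads, set to its lower bound, the medians were 8.41 in KPC and 7.85 in MB49. In bulk RNA, more cells expressing a gene and more RNA per cell cannot be told apart.

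**Figure D1:**
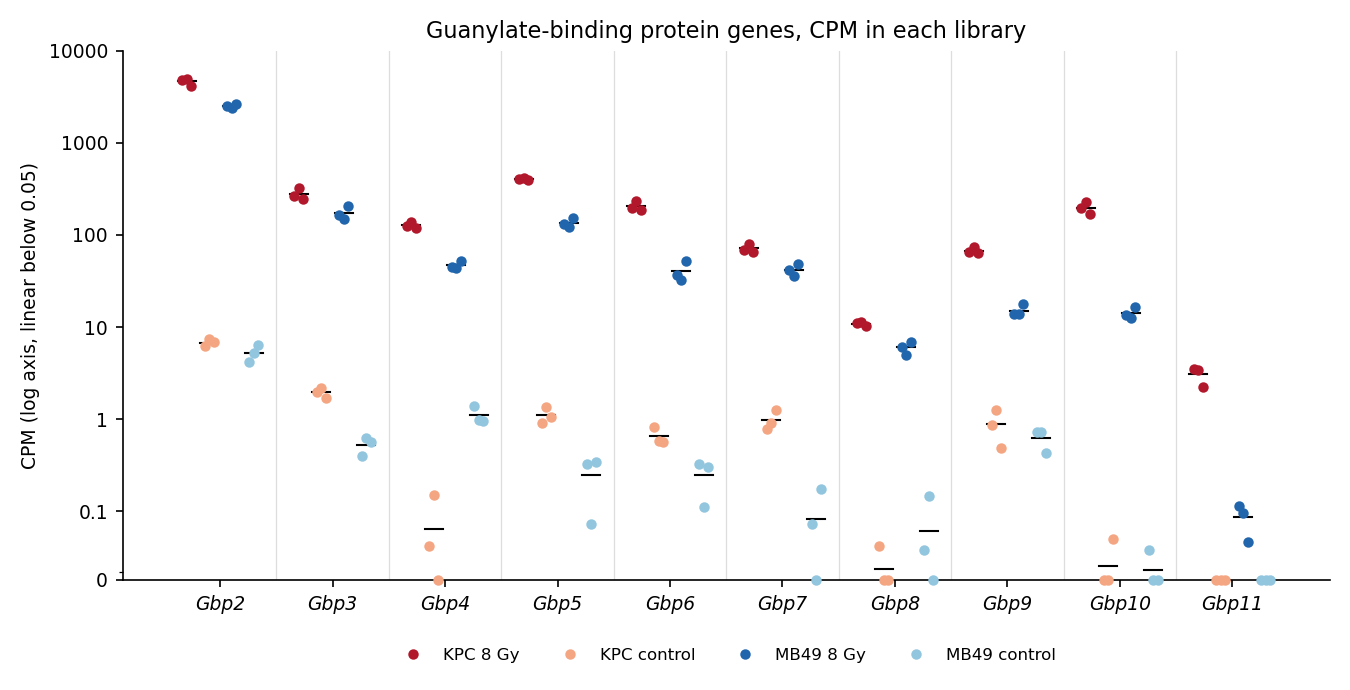
CPM of each member (log axis, linear below 0.05) in every library; points are the 3 libraries of a group and black bars their means. For each of the 10 genes both 8 Gy groups lie above both control groups, with Gbp2 the highest at 4662 CPM in KPC 8 Gy and 2527 CPM in MB49 8 Gy.

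Gbp2, which restricts intracellular parasites and bacteria, had by far the most transcripts. It had 4862, 4939 and 4184 CPM in KPC 8 Gy libraries, against 6.20, 7.34 and 6.82 CPM in KPC controls. In MB49 it had 2508, 2399 and 2673 CPM after 8 Gy, against 4.18, 5.28 and 6.33 CPM in controls. Irradiated libraries of both lines were high and controls low, with no overlap. The log2 fold change was 9.42 ± 0.20 (SE) in KPC (686-fold, adjusted p = 2.16e-15, edgeR) and 8.91 ± 0.20 in MB49 (481-fold, adjusted p = 2.94e-15). By CPM, Gbp2 ranked between 16 and 24 among all genes in KPC 8 Gy libraries and between 8906 and 9206 in KPC controls. In MB49 it ranked between 29 and 39 after 8 Gy and between 9130 and 9706 in controls.

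Gbp5, which promotes assembly of the NLRP3 inflammasome, came next by CPM in KPC 8 Gy cells. It had 409.8, 419 and 397 CPM there, against 0.915, 1.35 and 1.06 CPM in KPC controls. MB49 8 Gy libraries had 133, 122 and 153 CPM, against 0.327, 0.0733 and 0.347 CPM in MB49 controls. Its SD was 2.66% of the mean in KPC 8 Gy cells, the lowest of any member there. Log2 fold changes were 8.51 ± 0.22 in KPC and 9.09 ± 0.25 in MB49.

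Gbp3 and Gbp7, whose proteins are 71.0% identical, both rose less in KPC than in MB49. Gbp3 had 267, 320.5 and 244 CPM in KPC 8 Gy libraries, against 2.00, 2.17 and 1.72 CPM in KPC controls. In MB49 it had 164, 147 and 208 CPM after 8 Gy, against 0.3996, 0.623 and 0.564 CPM in controls. Its log2 fold change was 7.14 ± 0.20 in KPC and 8.35 ± 0.22 in MB49.

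Gbp7, which takes part in the oxidative killing of bacteria in macrophages, had 69.1, 80.2 and 64.6 CPM in KPC 8 Gy libraries, against 0.79, 0.919 and 1.26 CPM in KPC controls. MB49 8 Gy libraries had 41.4, 35.6 and 48.7 CPM, against 0.0727, 0 and 0.174 CPM in MB49 controls. The lines lay nearer to each other after 8 Gy than in controls, without overlap in either. The log2 fold change was 6.15 ± 0.23 in KPC and 8.98 ± 0.33 in MB49. The MB49 value rests on 2500 counts after 8 Gy and 6 in controls, a ratio of 545 (95% counting interval 250 to 1486). Such intervals cover counting error only.

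Gbp4, on chromosome 5, showed the opposite arrangement. It had 126, 138 and 119 CPM in KPC 8 Gy libraries, against 0.0416, 0.1497 and 0 CPM in KPC controls. MB49 8 Gy libraries had 44.9, 43.2 and 52.7 CPM, against 1.38, 0.9896 and 0.955 CPM in MB49 controls. KPC controls were lowest and KPC 8 Gy libraries highest. The ratio in KPC was 1931 (95% counting interval 827 to 5948, from 7788 and 5 counts), and the log2 fold change was 10.79 ± 0.29. In MB49 the log2 fold change was 5.39 ± 0.20, or 41.9-fold.

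Gbp6 and Gbp10 encode proteins that are 97.7% identical, and reads of the pair are hard to separate. Of all 75-base stretches of the Gbp10 transcript, 63.9% occur also in another family member, as do 57.2% of those of Gbp6. Values of each of the 2 genes are therefore uncertain. The deposited counts were whole numbers in 4 of 12 libraries for Gbp6 and Gbp7, in 5 for Gbp10, in 7 for Gbp4, Gbp8 and Gbp9, in 9 for Gbp11 and in 10 for Gbp3. Those of Gbp2 and Gbp5 were whole in all 12. Gbp6 had 198, 234 and 188 CPM in KPC 8 Gy libraries, against 0.832, 0.577 and 0.561 CPM in KPC controls. MB49 8 Gy libraries had 36.5, 32.7 and 52.7 CPM, against 0.327, 0.11 and 0.304 CPM in MB49 controls. Log2 fold changes of Gbp6 were 8.30 ± 0.25 in KPC and 7.35 ± 0.28 in MB49.

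Gbp10 was almost silent in both controls, and after 8 Gy the lines differed more in it than in any member but Gbp11. KPC 8 Gy libraries had 194, 227 and 169 CPM, against 0, 0 and 0.0502 CPM in KPC controls. MB49 8 Gy libraries had 13.6, 12.5 and 16.6 CPM, against 0.0363, 0 and 0 CPM in MB49 controls. Controls of each line held 1 count in all. The resulting ratio was 15014 in KPC (95% counting interval 2694 to 593057) and 1113 in MB49 (199 to 43998). With Gbp6 and Gbp10 counted as 1 gene the log2 fold change was 9.23 in KPC and 7.71 in MB49.

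Gbp9 had 64.5, 73.5 and 63.1 CPM in KPC 8 Gy libraries, against 0.874, 1.27 and 0.4902 CPM in KPC controls. In MB49 8 Gy libraries it had 13.8, 13.7 and 17.7 CPM, against 0.727, 0.733 and 0.434 CPM in MB49 controls. Control levels of the lines overlapped and irradiated levels did not. The log2 fold change was 6.23 ± 0.24 in KPC and 4.55 ± 0.24 in MB49.

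Gbp8 and Gbp11 were the least expressed. Gbp8 had 11.1, 11.4 and 10.2 CPM in KPC 8 Gy libraries, with 1 count in all 3 KPC controls, a ratio of 822 (95% counting interval 147 to 32509). MB49 8 Gy libraries had 6.10, 4.97 and 6.96 CPM, with 5 counts in all 3 MB49 controls, a ratio of 93.6 (39.7 to 290.1). Gbp11 had 3.53, 3.43 and 2.23 CPM in KPC 8 Gy libraries and 0.115, 0.0965 and 0.0466 CPM in MB49 8 Gy libraries, and no count in any control. Against a floor of 3 counts per control group, Gbp11 was at least 78.1-fold higher in KPC 8 Gy cells. In MB49 it was at least 2.18-fold higher (adjusted p = 0.0115), on 5 counts after 8 Gy. Gbp8, Gbp10 and Gbp11 passed the filter on low counts only through irradiated libraries, Gbp11 only through those of KPC. Gbp8 and Gbp10 could thus hardly fail to differ in either line, nor Gbp11 in KPC. In MB49, Gbp11 lay under the cutoff of 0.438 CPM in every library, so its call there is weak.

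**Figure D2:**
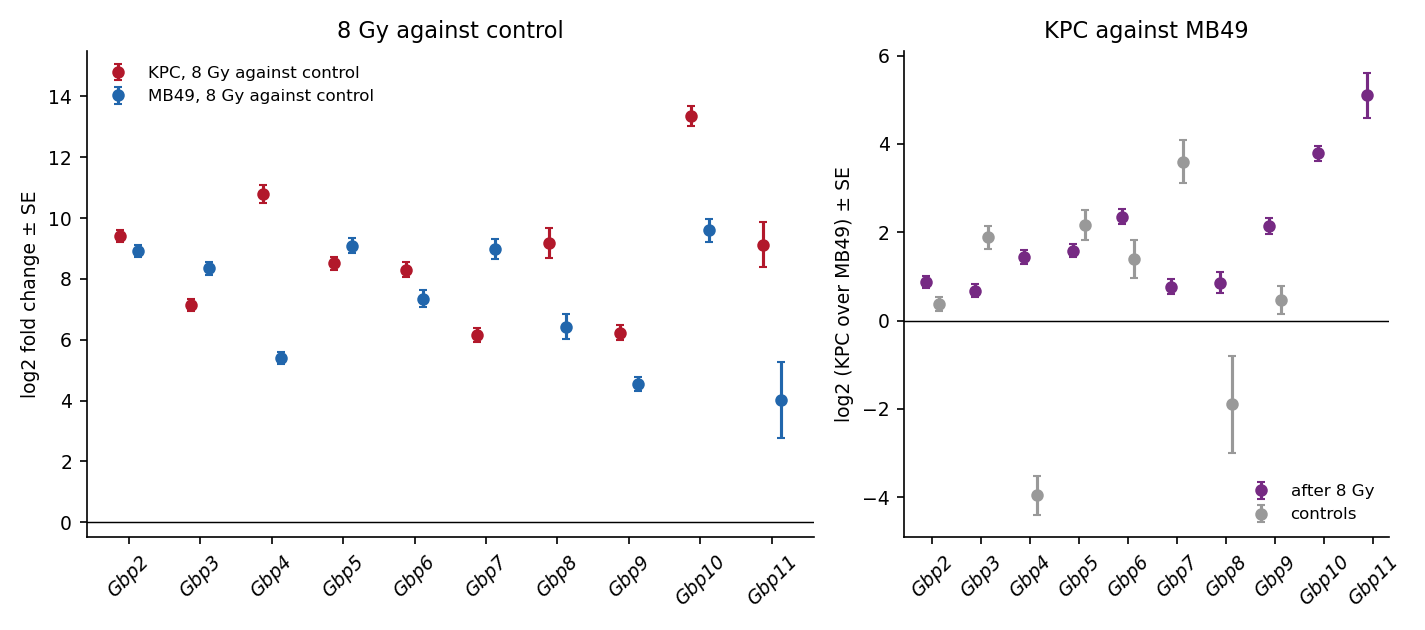
Left, log2 fold change ± SE of 8 Gy against control for each member in KPC and MB49; right, log2 of KPC over MB49 ± SE after 8 Gy and in controls (no control point for Gbp10 and Gbp11, at 0 or 1 count). Gbp4 is 10.79 in KPC and 5.39 in MB49, while Gbp7 is 6.15 in KPC and 8.98 in MB49; after 8 Gy every member is above 0 on the right.

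The responses of the 2 lines were then compared by an interaction term, KPC minus MB49, on the log2 scale. Of the 10 members, 2 were called higher and 2 lower in KPC, where 20.9% of all genes were called higher and 22.0% lower (42.9% in either direction). The share called in the family was thus near that of all genes. Gbp4 differed by 5.40 ± 0.46 (adjusted p = 1.15e-07, edgeR), the largest difference of a member that was called. Gbp9 rose more in KPC by 1.69 ± 0.37 (adjusted p = 0.00146). Gbp7 had the smaller rise in KPC, with a difference of -2.83 ± 0.54 (adjusted p = 0.000477), as did Gbp3 with -1.21 ± 0.30 (adjusted p = 0.00369).

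The other 6 members were not called. Gbp2 differed by 0.51 ± 0.21 (adjusted p = 0.0585), Gbp5 by -0.58 ± 0.38 and Gbp6 by 0.95 ± 0.51. Gbp8 gave 2.74 ± 1.15 and Gbp10 gave 3.75 ± 2.20, on 1 to 5 control counts per line. Gbp11 had no control reads in either line, so its difference could not be estimated. With Gbp6 and Gbp10 counted as 1 gene, the difference was 1.53 (adjusted p = 0.0209), which passed the threshold. Gbp2 also passed without MB49 8 Gy replicate 3 (0.55, adjusted p = 0.0433) or without MB49 control replicate 1 (0.66, adjusted p = 0.0202). Gbp6 passed without MB49 8 Gy replicate 3 (1.18, adjusted p = 0.0365). Gbp8 passed without KPC control replicate 1 (4.62, adjusted p = 0.0319) or without MB49 control replicate 3 (3.23, adjusted p = 0.0189).

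The called differences can be read from the levels before and after irradiation. After 8 Gy, KPC exceeded MB49 in 10 of 10 members, where 31.0% of all genes were called higher, with no overlap of libraries in any member (34.3% of all genes). Of these, Gbp11 passed the filter on low counts through KPC 8 Gy libraries alone, so it could hardly fail to differ. The log2 difference ran from 0.68 ± 0.14 in Gbp3 to 5.10 ± 0.51 in Gbp11, with a median of 1.51 beside -0.09 over all genes. It was 3.79 ± 0.17 in Gbp10, 2.35 ± 0.17 in Gbp6, 2.15 ± 0.18 in Gbp9, 1.58 ± 0.15 in Gbp5 and 1.44 ± 0.15 in Gbp4. It was under 1 in Gbp2 (0.88 ± 0.14), Gbp8 (0.86 ± 0.24) and Gbp7 (0.77 ± 0.17). The Gbp11 value rests on 189 and 5 counts, a ratio of 37.1 (95% counting interval 15.6 to 115.5).

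The controls did not follow one direction. KPC controls exceeded MB49 controls in 5 members, fell below them in 1 and were not called in 4, where 33.0% of all genes were called higher and 34.4% lower. Gbp7 was higher in KPC controls by 3.60 ± 0.48 on the log2 scale, Gbp5 by 2.16 ± 0.34, Gbp3 by 1.89 ± 0.26 and Gbp6 by 1.40 ± 0.43. Gbp4 was lower in KPC controls, at -3.96 ± 0.45, on 5 counts against 87. Gbp2 differed by 0.37 ± 0.16 (adjusted p = 0.0468) with overlapping libraries, and this call was lost under 14 of 19 alternative settings, including 10 of the 12 in which 1 library was left out (adjusted p 0.0522 to 0.245). The Gbp6 call was lost without KPC control replicate 1 (1.16, adjusted p = 0.0677) and without MB49 control replicate 2 (1.03, adjusted p = 0.0527). Gbp9, at 0.47 ± 0.31, was called only without KPC control replicate 3 (0.75, adjusted p = 0.03). For Gbp4 the log2 difference between the lines was thus 1.44 after 8 Gy and -3.96 in controls. For Gbp7 it was 0.77 after 8 Gy and 3.60 in controls.

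Levels were next divided by the gene length in the deposited table, which allows members to be set beside each other. In CPM per kilobase the family summed to 2280 ± 201 in KPC 8 Gy cells and 4.61 ± 0.357 in KPC controls. The sum was 1159 ± 80.2 in MB49 8 Gy cells and 2.90 ± 0.389 in MB49 controls. Gbp2 made up 81.3 ± 0.850% of the sum in KPC 8 Gy cells and 58.5 ± 1.73% in KPC controls. In MB49 its share was 86.7 ± 1.24% after 8 Gy and 71.6 ± 5.69% in controls. The Gbp2 share was thus larger after irradiation in both lines, with no overlap of libraries.

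The other shares differed by line. Gbp3 took 4.61 ± 0.354% in KPC 8 Gy cells and 16.2 ± 1.53% in KPC controls. In MB49 it took 5.65 ± 0.622% after 8 Gy and 6.92 ± 1.25% in controls. Gbp7 took 1.25 ± 0.0706% in KPC 8 Gy cells and 8.63 ± 2.26% in KPC controls. Gbp4 took 0.891 ± 0.0368% in MB49 8 Gy cells and 8.65 ± 2.92% in MB49 controls. Gbp10 took 2.44 ± 0.179% in KPC 8 Gy cells and 0.347 ± 0.0278% in MB49 8 Gy cells. The 4 members of the chromosome 3 cluster together held 91.9 ± 0.436% in KPC 8 Gy cells and 89.6 ± 2.53% in KPC controls, whose ranges overlapped. In MB49 they held 96.9 ± 0.357% after 8 Gy and 81.9 ± 5.82% in controls.

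**Figure D3:**
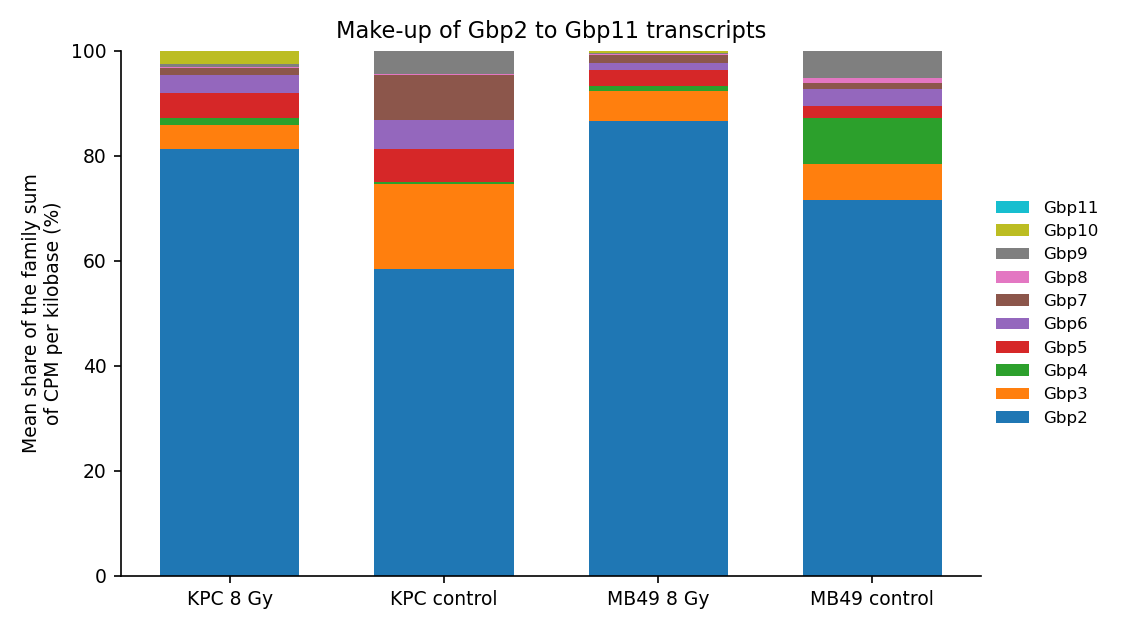
Mean share of each member in the family sum of CPM per kilobase (%), 3 libraries a group. Gbp2 fills 81.3% of the KPC 8 Gy bar and 86.7% of the MB49 8 Gy bar; Gbp3 and Gbp7 are wider in KPC controls, and Gbp4 in MB49 controls.

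The order of members by CPM per kilobase in KPC 8 Gy cells was Gbp2, Gbp5, Gbp3, Gbp6, Gbp10, Gbp7, Gbp4, Gbp9, Gbp8 and Gbp11. Gbp2, at 1853 ± 165, stood 17.0-fold over Gbp5 at 109 ± 2.89, and the ranges of Gbp5 and Gbp3 overlapped, as did those of Gbp7 and Gbp4. In MB49 8 Gy cells the order was Gbp2, Gbp3, Gbp5, Gbp7, Gbp6, Gbp4, Gbp10, Gbp9, Gbp8 and Gbp11. Gbp2, at 1004 ± 55.0, stood 15.2-fold over Gbp3 at 65.9 ± 11.9, and Gbp7 overlapped Gbp6, and Gbp10 overlapped Gbp9. In KPC controls Gbp2 was followed by Gbp3, then by Gbp7, Gbp5, Gbp6 and Gbp9, each overlapping its neighbour, and the other 4 were at 5 counts or fewer. In MB49 controls Gbp2 was followed by Gbp4, Gbp3, Gbp9, Gbp6, Gbp5, Gbp7, Gbp8, Gbp10 and Gbp11, each overlapping the next. The deposited length of Gbp5 is 3756 bases and that of Gbp7 2497, while the GENCODE transcripts at hand have 3055 and 5614, so the places of these 2 rest on the length used.

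Irradiated libraries of a line also differed from each other in the same sense for most members. Among KPC 8 Gy libraries, replicate 2 was highest in 9 of 10 members and replicate 3 lowest in 10 of 10. Their median ratio to the group mean was 1.11 in replicate 2 and 0.908 in replicate 3. Among MB49 8 Gy libraries, replicate 3 was highest in 9 of 10 and replicate 2 lowest in 9 of 10, with median ratios of 1.16 and 0.888. Over all genes of at least 1 CPM, KPC replicate 2 was highest in 33.5% and lowest in 43.2%, and KPC replicate 3 was lowest in 31.4%. MB49 replicate 3 was highest in 38.4% and lowest in 47.0%, and MB49 replicate 2 was lowest in 26.2%. These steps are small beside the rise of Gbp9, which at 6.23 in KPC and 4.55 in MB49 on the log2 scale was among the smaller ones.

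Most genes on a list of interferon signalling, which also holds inhibitors, rose in both lines. Whether these genes acted on the Gbp genes here was not tested. Of 21 genes of receptors, kinases, transcription factors and inhibitors, 19 were tested. In KPC 17 were called higher and 1 lower, where 31.3% of all genes tested were called higher and 32.0% lower, with a median log2 fold change of 1.17. In MB49 14 were called higher and 2 lower, where 35.3% of all genes were called higher and 31.6% lower, with a median of 1.22. Irf1, which binds ISRE letters, had 2348 ± 41.3 CPM in KPC 8 Gy cells and 137 ± 6.44 CPM in KPC controls. In MB49 Irf1 had 1298 ± 128 CPM after 8 Gy and 153 ± 9.59 CPM in controls. Its log2 fold change was 4.10 ± 0.13 in KPC and 3.09 ± 0.12 in MB49, a difference of 1.01 ± 0.16 (adjusted p = 0.000115, edgeR).

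Other members of this group changed by different amounts. Batf2, a partner of IRF1 in macrophages, rose by 10.04 ± 0.30 in KPC and 10.01 ± 0.32 in MB49 on the log2 scale. It had 286 CPM in KPC 8 Gy cells and 0.273 CPM in KPC controls. In MB49 it had 126 CPM after 8 Gy and 0.123 CPM in controls. Batf2 passed the filter on low counts, at 0.438 CPM, only through irradiated libraries, so it could hardly fail to differ. Irf7, which drives type I interferon genes, rose by 4.53 ± 0.16 in KPC and 4.86 ± 0.19 in MB49. Irf8, a factor of myeloid cells, had 3.88 CPM in KPC 8 Gy cells and 0.686 CPM in KPC controls, and rose by 2.51 ± 0.27 on the log2 scale. In MB49 it had 16.1 CPM after 8 Gy and 0.97 CPM in controls, and rose by 4.05 ± 0.25. The difference of its responses, KPC minus MB49, was -1.54 ± 0.37 (adjusted p = 0.00304, edgeR). Socs1, which inhibits the receptor kinases, rose by 5.22 ± 0.31 in KPC and 3.87 ± 0.28 in MB49. The difference of its responses was 1.35 ± 0.39 (adjusted p = 0.0134, edgeR). Of the interferons, only Ifng and Ifnb1 were read: Ifng had no count in any of the 12 libraries. Ifnb1 had 10 counts in KPC 8 Gy libraries and 1 in KPC controls, and 1 count in MB49 8 Gy libraries and 0 in MB49 controls.

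**Figure D4:**
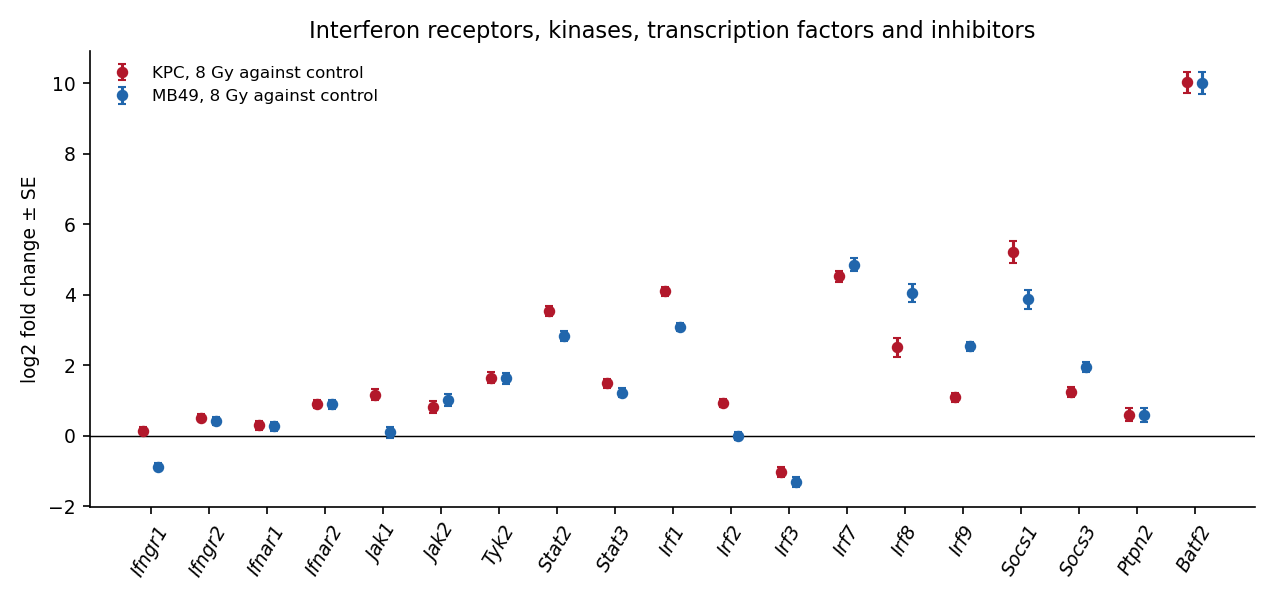
Log2 fold change ± SE, 8 Gy against control, of the 19 tested genes of interferon signalling in KPC and MB49. Batf2, at 20 counts in KPC controls and 9 in MB49 controls, is near 10 in both lines. Irf1 is 4.10 in KPC and 3.09 in MB49.

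The immunity-related GTPases, which load onto vacuoles with Gbps, rose throughout: 7 of 7 were called higher in each line, against 31.3% of all genes in KPC and 35.3% in MB49. Their median log2 fold change was 7.45 in KPC and 10.02 in MB49, or 8.52 in MB49 with the 3 genes at 0 in controls set to their bounds. Tgtp1 had 609 CPM in KPC 8 Gy cells and 0.145 CPM in KPC controls. In MB49 8 Gy cells Tgtp1 was at least 367-fold and Tgtp2 at least 589-fold higher than in controls, which held no count of either. Gm12250, the gene of Irgb10, had 64.7 CPM in KPC 8 Gy cells and 0.107 CPM in KPC controls. Iigp1 had 102 CPM in KPC 8 Gy cells and 0.108 CPM in KPC controls. Tgtp1, Gm12250 and Iigp1 had at most 0.258 CPM in any control library, under the cutoff of the filter on low counts, 0.438 CPM. These genes passed the filter only through irradiated libraries, so they could hardly fail to differ. Tgtp1 and Tgtp2 are near copies whose reads may be shared.

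Of 14 genes of cell death and inflammasomes in which Gbps act, 11 were tested and 9 were called higher in each line, with none lower, beside the same shares of all genes. The median was 2.30 in KPC and 1.17 in MB49. Zbp1, a sensor of nucleic acids, had 454 CPM in KPC 8 Gy cells and 2.66 CPM in KPC controls. In MB49 it had 40.2 CPM after 8 Gy and no count in controls. Casp1, the inflammasome protease, rose by 3.53 ± 0.25 in KPC and 4.40 ± 0.29 in MB49 on the log2 scale. Gsdmd, whose product forms the pores of pyroptosis, rose by 2.07 ± 0.12 in MB49. In KPC it had 234 CPM after 8 Gy and 44.8 CPM in controls. Naip2, a receptor of bacterial secretion systems, rose by 3.46 ± 0.18 in KPC. In MB49 it had 25.7 CPM after 8 Gy and 11.1 CPM in controls. The genes not tested were Pycard, Nlrc4 and Il1b, with at most 14, 8 and 2 counts in a group. Nlrp3 had 3 counts in KPC 8 Gy libraries and 1 in KPC controls. In MB49 Nlrp3 had 13.3 CPM after 8 Gy and 6.44 CPM in controls.

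Of 16 ubiquitin-like and autophagy factors, 7 were called higher and 4 lower in each line, with medians of 0.24 in KPC and 0.19 in MB49. Among all genes tested, 31.3% were called higher and 32.0% lower in KPC, and 35.3% higher and 31.6% lower in MB49, so these counts lie near the background. Trim21, an intracellular antibody receptor and ubiquitin ligase, rose by 2.17 ± 0.19 in KPC and 3.02 ± 0.20 in MB49. Gbp2 and Gbp5 reach membranes by a prenyl lipid, whose kind was not examined here. Of 8 enzymes that make, attach or process prenyl lipids, 3 were called higher and 3 lower in each line, also near these shares. Fnta, a subunit of farnesyltransferase, fell by 1.85 on the log2 scale in KPC and by 1.61 in MB49 (SE 0.13 in each). Fdps, which makes the farnesyl donor, rose by 0.74 ± 0.13 in KPC and 1.17 ± 0.13 in MB49.

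Other GTPases of the dynamin superfamily did not move as 1 group. Of 13 tested, 5 were called higher and 2 lower in KPC, and 6 higher and 4 lower in MB49, beside 31.3% higher and 32.0% lower of all genes in KPC and 35.3% and 31.6% in MB49. The interferon-induced antiviral gene Mx2 rose by 5.61 ± 0.20 in KPC and 5.94 ± 0.27 in MB49, and Mx1 by 8.89 ± 0.44 in KPC. Mx1 had 27.7 CPM in KPC 8 Gy cells and 0.0513 CPM, or 4 counts, in KPC controls. In MB49 Mx1 had 0.584 CPM after 8 Gy and 0.0434 CPM in controls. Mx1 passed the filter on low counts only through irradiated libraries, so it could hardly fail to differ in KPC. The atlastins, relatives of Gbps that fuse the endoplasmic reticulum, showed no rise like that of Mx2. Atl3 had log2 fold changes of -0.17 ± 0.14 in KPC and -0.23 ± 0.14 in MB49, neither called. Atl2 had -0.10 ± 0.13 in KPC, not called, and fell by 0.86 in MB49 (SE 0.13).

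Leukocytes also express Gbp genes, so 17 leukocyte markers were read in the same libraries. Their summed level was 98.6 to 106.4 CPM in KPC 8 Gy libraries, against 37.4 to 38.6 CPM in KPC controls. In MB49 it was 57.6 to 68.1 CPM after 8 Gy, against 58.6 to 62.7 CPM in controls. Cd14 alone gave 96.4 CPM in KPC 8 Gy cells and 35.8 CPM in KPC controls. Markers at 1 CPM or more numbered 3 in KPC 8 Gy cells, 2 in KPC controls and 1 in each MB49 group. Beside Cd14, those of KPC were Cd79a and Csf1r. Cd79a had 3.82 CPM in KPC 8 Gy cells and 1.83 CPM in KPC controls, and Csf1r had 1.63 and 0.119 CPM. At 0 counts were 11 of the 17 in KPC 8 Gy cells, 10 in KPC controls, 6 in MB49 8 Gy cells and 7 in MB49 controls. Ptprc, the pan-leukocyte marker, had no count in KPC libraries, 1 count in MB49 8 Gy libraries and 0 in MB49 controls. Among 8 fibroblast and endothelial markers the sum was 82.7 to 102 CPM in KPC 8 Gy libraries, against 167 to 209.9 CPM in KPC controls. In MB49 that sum was 161 to 216 CPM after 8 Gy, against 52.6 to 81.9 CPM in controls. Whether these markers have a part in the Gbp result was not tested.

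The genes with profiles most like the family were sought among 14352 other genes, by the root mean square distance of centred log2 CPM over the 12 libraries. Nearest to Gbp2 were Iigp1 (0.65), Gm4841 (0.672), Batf2 (0.743), Gm12250 (1.03) and C4b (1.17). Nearest to the mean profile of the members were Iigp1c (0.585), Sprr2d (0.596), Sprr2h (0.706), Gm4841 (0.727) and Ciita (0.803). Ciita, which switches on MHC class II genes, had log2 fold changes of 12.64 in KPC and 5.82 in MB49. The small proline-rich genes Sprr2d and Sprr2h, which are known from epithelial barriers, had 10.10 and 7.05 in KPC and 8.60 and 5.98 in MB49.

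**Figure D5:**
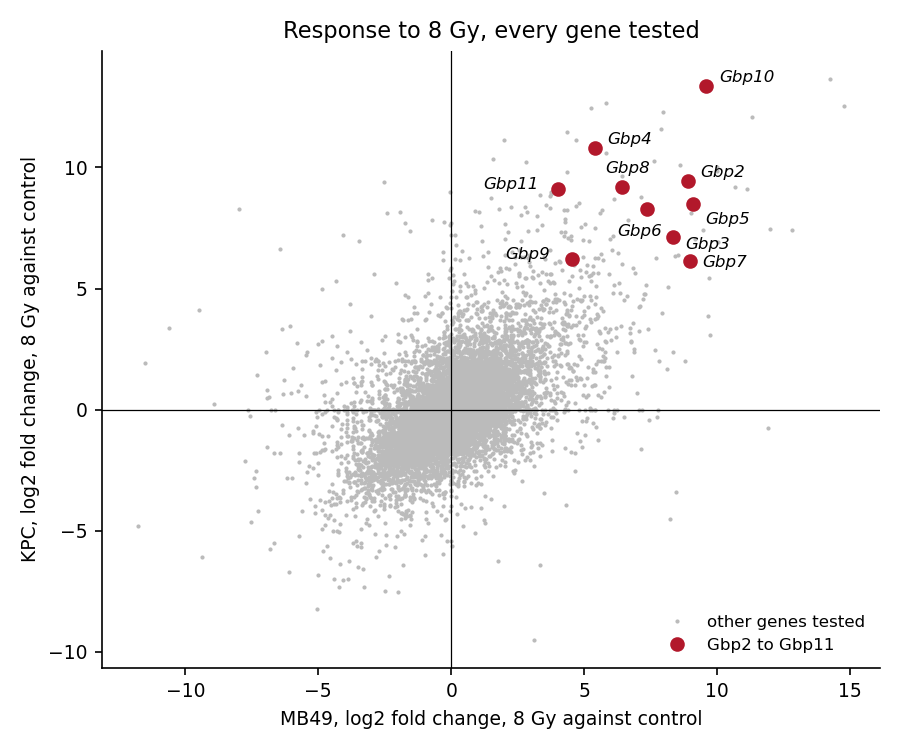
Log2 fold change of 8 Gy against control in KPC (vertical) and in MB49 (horizontal) for all 14362 genes tested; red points are the 10 members. All members lie in the upper right, such as Gbp9 (6.23 in KPC, 4.55 in MB49) and Gbp2 (9.42 in KPC, 8.91 in MB49); the points of Gbp8, Gbp10 and Gbp11 are fitted on few or no control counts.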

How the data were processed

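RNA extracted with TRIzol was made into libraries with an Illumina stranded mRNA kit, per the labels' protocols. The submitters' processing notes name fastp, HISAT2, StringTie and the build GRCm39. The tool that counted reads per gene and its strand setting are not given in the sources used here, so reads of overlapping antisense genes cannot be told apart. The authors deposited estimated counts per gene, of which 6.2 to 8.65% per library were not whole, and these were rounded to whole numbers. Rows without a symbol (525) took 0.184 to 0.449% of counts and stayed in library sizes.

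Samples were grouped by their titles. edgeR 4.0.16 (R 4.3.3, limma 3.58.1) was run with filterByExpr by group, at a minimum count of 10, which left 14362 of 57180 genes, TMM factors of 0.829 to 1.18, and a robust quasi-likelihood fit of all 12 libraries with 1 coefficient per group and 8 residual degrees of freedom. The common biological coefficient of variation was 0.150. Tests were 2-sided, with p adjusted by Benjamini-Hochberg over the 14362 genes and a threshold of 0.05. Standard errors are approximate, taken from the fold change and the F statistic. The code was tested on simulated data. DESeq2 1.42.0, other scalings, no filter, a replicate block, each library left out and summed near-identical members were the alternatives. Counting intervals and floors (3 counts per group) leave out variation between libraries.

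All 10 members were named in every comparison. Other genes were named from the 3 largest called changes of a list at 1 CPM or more, the 5 nearest profiles, and Irf1, Gbp2b, Atl2 and Atl3. Ifng, Ifnb1, Iigp1, Ciita, Pycard, Nlrc4, Il1b, Nlrp3, the single markers and list genes given for both lines were added after their values were seen. An item of the interferon list is not reported here. The members and lists were chosen with earlier results of these data known. Protein identity (Biopython 1.88) was computed from open reading frames of GENCODE transcripts. Promoters are from RefSeq, and their coordinates are of GRCm38.p6, not of the build of the counts.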

Additional observations from a re-analysis of the deposited data

Results flagged for a closer look

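The 8 Gy response of 4 members differed between the lines by the interaction term of the edgeR fit, KPC minus MB49 on the log2 scale. The difference was 5.40 in Gbp4 (10.79 in KPC, 5.39 in MB49) and 1.69 in Gbp9 (6.23 in KPC, 4.55 in MB49). It was -1.21 in Gbp3 (7.14 in KPC, 8.35 in MB49) and -2.83 in Gbp7 (6.15 in KPC, 8.98 in MB49). For all 4 genes the 3 irradiated libraries of each line lay above its 3 control libraries. The Gbp4 value rests on 5 counts in KPC controls, and the Gbp7 value on 6 counts in MB49 controls.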

How the results depend on the processing

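No member changed direction or lost its call in 8 Gy against control, in either line, or in KPC 8 Gy against MB49 8 Gy, under the alternatives run, except that Gbp11 in MB49 was not tested when only the MB49 libraries were fitted. The members called for the difference of responses numbered 4 to 6, and those called between controls 4 to 6, over the same alternatives. The difference for Gbp2 was called with RLE size factors (0.57), DESeq2 (0.57) and no filter (0.64), that for Gbp6 with no filter (1.07) and that for Gbp11 with DESeq2 (5.20). With library totals only, the median of all genes moved by -0.38 in KPC, -0.28 in MB49 and -0.13 in KPC 8 Gy against MB49 8 Gy. Under that scaling 3 prenylation enzymes were called for the difference of responses instead of 0, and 8 instead of 5 in KPC 8 Gy against MB49 8 Gy. The family sum of CPM per kilobase was then 1942 in KPC 8 Gy cells, 5.13 in KPC controls and 3.31 in MB49 controls. Pairing by replicate number was read from deviations of log2 CPM from the group mean. In these deviations, same-numbered libraries correlated at -0.0936 to 0.0157 in KPC and at -0.136 to 0.135 in MB49. Not every library correlated best with its own number. The numbers thus showed no clear pairing, but with 3 libraries per group this cannot exclude it. With a replicate block, 10 members were called in each line, 4 for the difference of responses and 5 between controls, where Gbp2 was lost (adjusted p = 0.0672). The differences of Gbp8, Gbp10 and Gbp11 rest on control groups of 0 to 5 counts, which limits their precision.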
